A study of Mus musculus with 8 samples.

Results

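The regions described here are the 21818 sites of open chromatin that were found in all 4 DNase-seq libraries of 2 mouse cell lines, one with a dominant-negative Brg1 and one with a dominant-negative Chd4. They were taken from 86353 sites obtained by merging every pair of DNase hotspots that overlapped by 1 bp or more, and the whole series of 8 libraries gave 99999 sites. In DNase-seq, DNase I cuts accessible DNA in isolated nuclei, and a hotspot is a region enriched in cuts. For each site, the highest density of cuts without tetracycline was divided by that with tetracycline in the same line, the log2 ratio was centred on the median of the line, and the ratio in DNCHD4 cells was subtracted from that in DNBrg1 cells. A centred ratio is called a change below, and a negative change means less density, relative to the other sites of that line, once tetracycline was removed.

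The work used 3134 cells, which are epithelial cells from mouse mammary gland. The 4 groups compared were DNBrg1 with tetracycline, DNBrg1 without it, DNCHD4 with tetracycline and DNCHD4 without it, each with 1 library, and tetracycline was withdrawn for 48 hours to induce the protein. DNCHD4 cells carry a mutated, FLAG-tagged mouse Chd4 on a retroviral tetracycline-regulated vector, integrated into cells that already hold the tetracycline transactivator. The protocol text describes no Brg1 construct, and it does not say whether a line is a single clone. The parental line and a DNSnf2h line (a mutated, FLAG-tagged human SNF2H on the same kind of vector), each with and without tetracycline, supplied values that the choice of sites did not use. With 1 library per group no difference has a replicate check, so the text gives no p-value, and intervals are 95% intervals of counting error on cut tags alone. Expression of the introduced proteins was not measured in these libraries.

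Brg1 is an ATPase subunit of the SWI/SNF remodeling complexes, which slide and evict nucleosomes and are known for opening enhancers and promoters. Chd4 is the ATPase of NuRD, which joins nucleosome remodeling to histone deacetylation and is known for closing chromatin as well as for acting at active enhancers. A dominant-negative form that cannot use ATP enters such complexes and blocks their activity.

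The 4 lists held 29379 and 30423 hotspots in DNBrg1 and 48888 and 78093 in DNCHD4, with and without tetracycline. The lowest listed density was 16.4 and 9.19 in DNBrg1 and 8.05 and 5.09 in DNCHD4. The median hotspot rested on 65 to 126 tags in these libraries, a counting error of 8.89% to 12.4%. Before centring, the median log2 ratio was -0.64 in DNBrg1 and 0.06 in DNCHD4, and -0.40 in parental cells at the 20344 sites that both parental libraries listed.

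The lines changed alike far more often than in opposite directions. A change of at least 1.5-fold in both lines was seen at 2507 sites, 11.5% of all. Of these, 2173 moved the same way and 334 moved in opposite ways, which is 6.51 sites alike for each opposite one. Lower density in both lines was found at 1637 sites (7.50% of the 21818 sites) and higher density in both at 536 (2.46%). Opposite movement comprised 183 sites lower in DNBrg1 and higher in DNCHD4 (0.839%) and 151 sites higher in DNBrg1 and lower in DNCHD4 (0.692%).

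These shares can be read against what each line did by itself. DNBrg1 was at least 1.5-fold lower at 3658 sites (16.8%) and higher at 2805 (12.9%), and DNCHD4 was lower at 3589 (16.4%) and higher at 2648 (12.1%). Of the sites lower in DNBrg1, 44.8% were also lower in DNCHD4, 5.00% were higher there and 50.2% changed by under 1.5-fold. Among sites higher in DNBrg1, 19.1% were higher in DNCHD4 and 5.38% lower. The share lower in DNCHD4 was thus 44.8% where DNBrg1 was lower, beside 16.4% of all sites, and whether these shares differ beyond replicate error cannot be tested with 1 library per group. Across the 21818 sites the changes of the lines had a Pearson correlation of 0.39 and a Spearman correlation of 0.35, given as a description, since sites of one library share its depth and preparation.

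**Figure D1:**
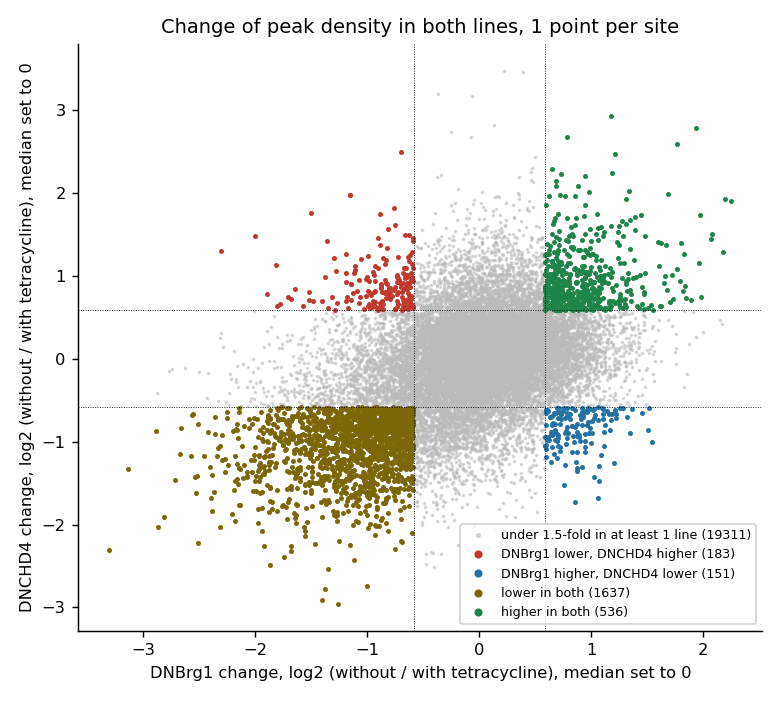
Each point is 1 of the 21818 sites, with its change in DNBrg1 on the horizontal axis and in DNCHD4 on the vertical axis, both as log2 ratios without over with tetracycline and centred on the line's median; dotted lines mark 1.5-fold. The corner of sites lower in both lines holds 1637 points, against 183 and 151 points in the opposite corners.

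The difference of changes, DNBrg1 minus DNCHD4, had an SD of 0.67 across sites and quartiles of -0.42 and 0.42 on the log2 scale. Its median standard error from tags was 0.25. DNBrg1 stood at least 2-fold below DNCHD4 at 1511 sites (6.93%) and at least 2-fold above it at 1253 sites (5.74%). The counting interval of the difference left out 0 at 10073 of all sites (46.2%). The direction of this split depended on the centring: with ratios as deposited, 6943 sites were at least 2-fold below and 139 above, the opposite movers numbered 1309 and 5 in the order given above, and the alike movers 2629 lower and 98 higher. All statements on higher and lower density here are thus relative to the median site of a line.

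Opposite sites thinned out quickly as the limit was raised. The site just inside the 1.5-fold limit among those lower in DNBrg1 and higher in DNCHD4, on chromosome 8 from 119998820 to 119999366, had changes of -0.68 and 0.59. The site just outside it, on chromosome 9 from 110351211 to 110351905, had -0.58 and 0.79. With a limit of 2-fold in each line, 15 and 8 opposite sites remained past it, beside 438 sites lower and 67 higher in both.

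Sites lower with dominant-negative Brg1 and higher with dominant-negative Chd4 are shown first, by the 5 with the largest changes in both lines. Named sites had exactly 1 hotspot per list and fewer than 20 sites within 50 kb. Positions are on build mm9, as the lists give them. On chromosome 7 from 152242170 to 152242934, density was 117 with and 15.1 without tetracycline in DNBrg1, and 34.3 and 88.5 in DNCHD4. The changes were -2.31 (-2.75 to -1.88) and 1.3 (1.06 to 1.55), and their difference of -3.61 (-4.10 to -3.13) was the lowest of all 21818 sites. Parental cells had 36.0 and 29.9 there and DNSnf2h cells 14.9 and 14.7, so that neither of these lines moved by more than its counting interval. The DNBrg1 library with tetracycline stood high at this site, and the 7 other libraries lay between 14.7 and 88.5.

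A site on chromosome 3 from 104597098 to 104598010 showed the same pattern. It had 86.1 and 13.8 in DNBrg1, 60.3 and 176 in DNCHD4, 73.8 and 52.8 in parental cells, and 10.8 and 12.1 in DNSnf2h. The changes were -2.00 (-2.48 to -1.54) in DNBrg1 and 1.48 (1.3 to 1.67) in DNCHD4, with a parental change of -0.09. The DNBrg1 library without tetracycline and both DNSnf2h libraries were the low ones, and the DNCHD4 library without tetracycline was the highest. On chromosome 5 from 30920026 to 30920809, density was 46.3 and 10.5 in DNBrg1 and 15.9 and 56.2 in DNCHD4, and the site was listed in no library of the parental and DNSnf2h lines. Its changes were -1.50 (-2.08 to -0.94) and 1.76 (1.41 to 2.12).

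The other 2 sites of this group had parental hotspots. On chromosome 12 from 3781424 to 3782054, density was 51.0 and 12.8 in DNBrg1, with 22.5 and 63.3 in DNCHD4; parental cells had 36.9 and 27.0, and DNSnf2h listed nothing. Changes were -1.35 and 1.43. On chromosome 8 from 3606326 to 3607315, density was 61.5 and 16.1 in DNBrg1, 44.9 and 109 in DNCHD4, 45.0 and 58.4 in parental cells, and 10.1 and 27.2 in DNSnf2h. This was the one of the 5 at which the parental and DNSnf2h changes, 0.77 (0.47 to 1.08) and 1.4 (0.93 to 1.88), went the way of DNCHD4, with DNBrg1 at -1.29.

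Sites higher with dominant-negative Brg1 and lower with dominant-negative Chd4 had modest DNBrg1 ratios as deposited, 1.34 to 1.47 at the 5 named ones, and centring adds 0.64 to their log2 value. On chromosome 4 from 88707276 to 88708040, density was 43.9 and 64.8 in DNBrg1, a ratio of 1.47 as deposited, and 41.3 and 18 in DNCHD4. The centred changes were 1.21 (0.83 to 1.6) and -1.26 (-1.62 to -0.91). Parental cells had 31.9 and 12.9 and DNSnf2h cells 37.0 and 13.5, so that DNBrg1 was the one line of the 4 in which this site had more density without tetracycline. On chromosome 17 from 17982055 to 17983014, density was 25.8 and 34.4 in DNBrg1, with 52.1 and 17.0 in DNCHD4; parental cells had 34.7 and 16, and DNSnf2h had 39.6 with tetracycline and no hotspot without it. The difference of changes was 2.74 (2.14 to 3.34), the highest of all sites.

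The other named sites of this group likewise had more DNBrg1 density without tetracycline. On chromosome 13 from 52753691 to 52755389, density was 39.8 and 54.3 in DNBrg1, with 108 and 50.3 in DNCHD4 and 85.6 and 42.0 in parental cells, and the DNSnf2h change was -1.10. On chromosome 10 from 95540169 to 95540880, it was 141 and 196 in DNBrg1, 198 and 99.5 in DNCHD4, 116 and 76.2 in parental cells, and 191 and 75 in DNSnf2h. On chromosome 4 from 116874555 to 116875771, it was 32.8 and 44.1 in DNBrg1, 36.0 and 15.3 in DNCHD4, 32.9 and 22.7 in parental cells, and 19.6 and 12.3 in DNSnf2h. At all 5 sites DNBrg1 was higher without tetracycline as deposited, and every other pair listed was lower. Relative to the median site, however, the parental interval held 0 on chromosome 4 from 116874555 (-0.14, -0.57 to 0.28) and on chromosome 10 from 95540169 (-0.21, -0.43 to 0.02). The next highest differences of changes were 2.58 (2.08 to 3.08) on chromosome 11 from 87275827 to 87276727 and 2.55 (1.94 to 3.16) on chromosome 8 from 11371919 to 11372624. DNSnf2h changes there were -0.73 and -1.20.

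**Figure D2:**
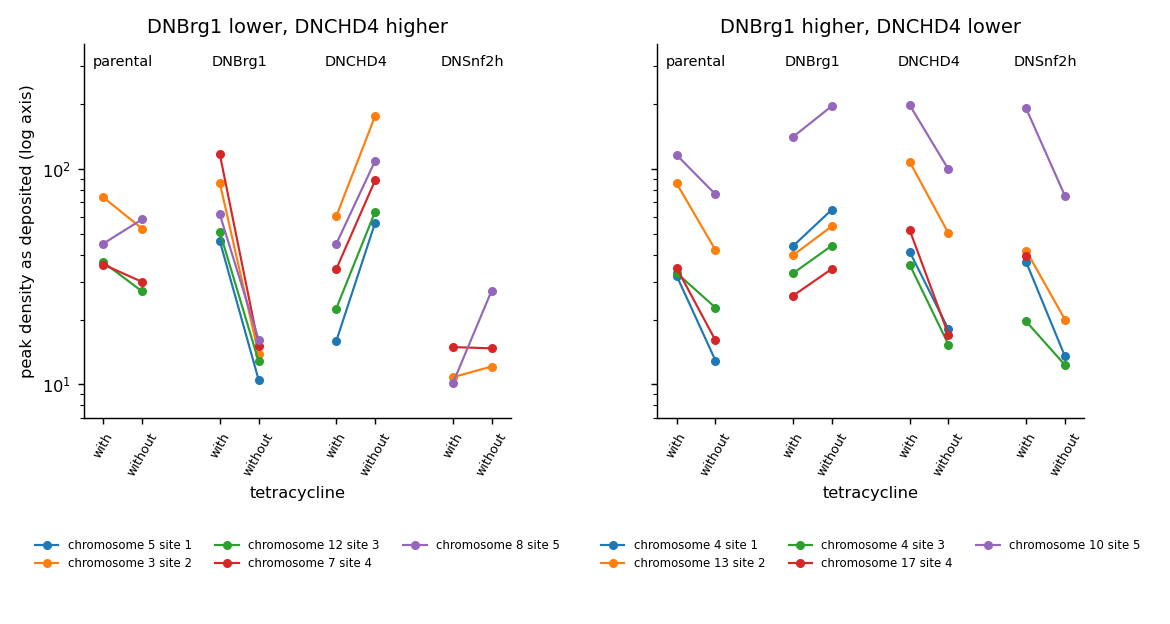
Peak density as deposited, on a log axis, with and without tetracycline in the 4 lines, for the 5 named sites of each opposite direction (1 colour per site; lines join the 2 libraries of a line; unlisted libraries have no point). On the left DNBrg1 goes from 46.3 to 117 down to 10.5 to 16.1 while DNCHD4 goes up; on the right DNBrg1 goes up while DNCHD4 goes down.

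At the named sites that moved alike, parental cells moved with both lines. The 3 sites lowest in both lines were on chromosome 15 from 62400370 to 62401584, on chromosome 15 from 62529802 to 62530843, and on chromosome 3 from 106634762 to 106635729. The first had densities of 161 and 10.5 in DNBrg1, 161 and 34.1 in DNCHD4, 122 and 36.8 in parental cells, and 49.3 and 12.5 in DNSnf2h. Its changes were -3.30 and -2.31, with -1.33 in parental and -2.01 in DNSnf2h cells. At the other 2 sites the changes were -2.51 and -2.31 in DNBrg1, -2.22 and -2.03 in DNCHD4, -1.05 and -1.22 in parental cells and -1.61 and -1.71 in DNSnf2h. Each of the 3 sites was lower without tetracycline in every line.

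The sites highest in both lines were likewise higher in parental cells. On chromosome 14 from 106562591 to 106563859, density was 27.5 and 80.9 in DNBrg1, 18.1 and 71.7 in DNCHD4, 22.0 and 79.5 in parental cells, and 12.5 and 20.4 in DNSnf2h. The parental change of 2.25 there was as large as those of DNBrg1 (2.20) and DNCHD4 (1.93). On chromosome 13 from 67673345 to 67674215, the changes were 2.25, 1.91 and 1.62 in DNBrg1, DNCHD4 and parental cells, and on chromosome 17 from 68536632 to 68537541 they were 1.77, 2.59 and 1.83. These 3 sites thus changed in parental cells too, which carry no dominant-negative protein.

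The median parental change differed between alike and opposite sites over the whole set, while the values of these classes overlapped. At sites lower in both lines the median parental change was -0.41 (quartiles -0.68 and -0.15), and at sites higher in both it was 0.59 (0.29 and 0.94). It was 0.03 (-0.29 and 0.40) at sites lower in DNBrg1 and higher in DNCHD4 and 0.07 (-0.23 and 0.27) at the reverse ones. In parental cells at least 1.5-fold lower density was found at 32.8% of the sites lower in both lines and at 6.21% and 6.34% of the opposite ones, beside 7.19% of all sites. At least 1.5-fold higher parental density was found at 50.3% of the sites higher in both, and at 11.8% and 4.93% of the opposite ones, beside 7.78% of all sites. Parental change stayed under 1.5-fold at 132 of 161 and 126 of 142 opposite sites with parental values (82.0% and 88.7%), and 85.0% of all sites did so. It also stayed under 1.5-fold at 66.8% of the sites lower in both and 49.5% of those higher in both.

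With the parental change as covariate, both lines followed it to a like degree and their difference hardly did. The least-squares slope on the parental change was 0.65 for DNBrg1 and 0.58 for DNCHD4 over 20344 sites, and 0.07 for the difference, for which the parental change accounted for 0.2% of the variance. At the 236 sites with a parental change of -1 or less, the median change was -0.99 in DNBrg1 and -1.19 in DNCHD4, and 61.4% of them were lower in both. None of these 236 sites moved in opposite ways. At the 303 sites with a parental change above 1, the medians were 0.61 and 0.75, 34.3% were higher in both and 1.32% moved in opposite ways. In the 4 ranges between, the share of opposite sites was 1.41% to 1.87%.

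**Figure D3:**
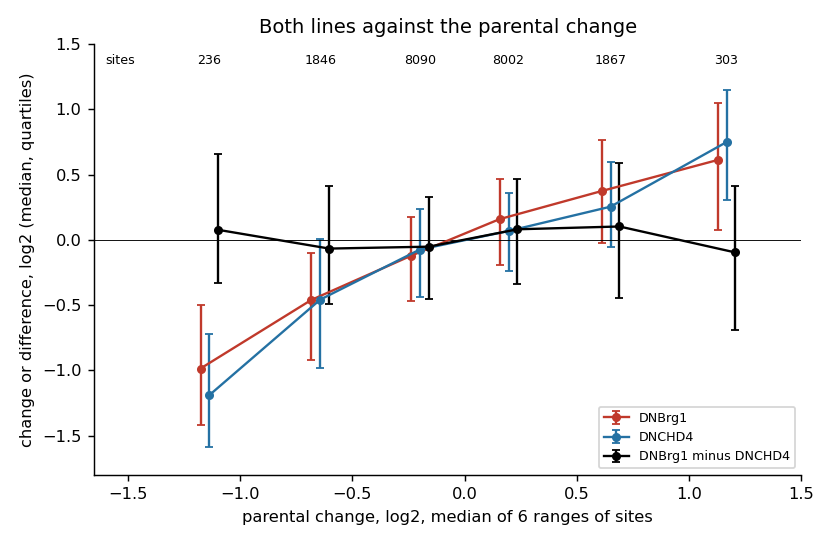
Median change (points) with quartiles (bars) of DNBrg1, DNCHD4 and their difference, on the log2 scale, against the median parental change in 6 ranges of sites, with the number of sites above each range. Both lines rise with the parental change while the medians of the difference stay between -0.10 and 0.10.

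With the parental change removed, opposite sites were somewhat more numerous and many of them were other sites, while sites lower in both were fewer. After a straight-line fit on the parental change, 185 and 186 sites moved in opposite ways, of which 92 and 102 were among the 161 and 142 counted before (57.1% and 71.8% of those, and 49.7% and 54.8% of the later lists). Sites lower in both numbered 900 by residuals, and 754 of them were among the earlier 1571. Sites higher in both numbered 375, and 148 were among the earlier 475. Plain subtraction of the parental change gave 184 and 190 opposite sites, which included 70 and 75 of the earlier ones. It gave 1209 sites lower in both, 618 of them among the earlier ones, and 503 higher in both, of which 76 were. The residuals of the lines still correlated, with a Pearson coefficient of 0.26.

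The DNSnf2h line, which entered no step of the choice, had median changes of the same sign as DNCHD4 at opposite sites. Snf2h is the ATPase of the ISWI complexes, which space nucleosomes. At sites higher in DNBrg1 and lower in DNCHD4, the median DNSnf2h change was -0.59 (quartiles -0.96 and -0.16), with 105 of 124 sites below 0. There 51.6% were at least 1.5-fold lower in DNSnf2h, beside 17.7% of all sites. At sites lower in DNBrg1 and higher in DNCHD4 it was 0.22 (-0.05 and 0.60), with 30 of 45 sites above 0, and the rest of the 183 had no DNSnf2h value. This median was 0.03 with the parental change subtracted and 0.09 with mean density, and that of the reverse sites was -0.37 with the median set to 0 within bins of density. Of the 45 sites lower in DNBrg1 and higher in DNCHD4 with a DNSnf2h value, 28.9% were at least 1.5-fold higher in DNSnf2h, beside 12.5% of all sites. The median in sites lower in both was -0.64, beside -0.59 where DNCHD4 was lower and DNBrg1 higher. Over the 12727 sites with DNSnf2h values the Pearson correlation with the DNSnf2h change was 0.59 for DNCHD4, 0.32 for DNBrg1 and -0.19 for the difference of changes, again as a description of these libraries.

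**Figure D4:**
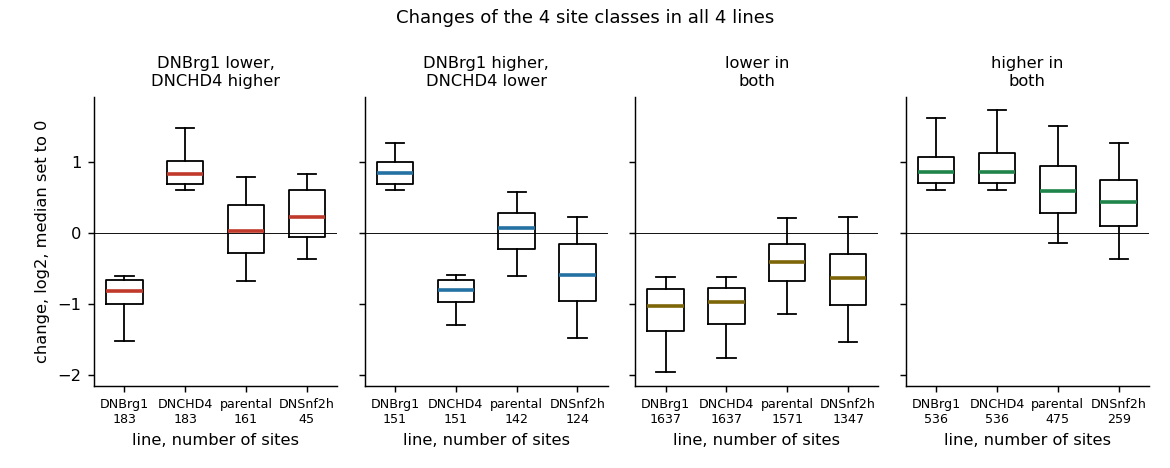
Changes of the 4 site classes in each line, as log2 ratios centred on the line's median (box: quartiles; coloured line: median; whiskers: the 5th and 95th percentiles), with the number of sites under each box. DNBrg1 and DNCHD4 chose the classes; parental medians lie at 0.03 and 0.07 in the opposite classes, and the DNSnf2h medians at 0.22 and -0.59 have the sign of DNCHD4.

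Listing in DNSnf2h cells before induction went with the direction of DNCHD4 at opposite sites and at sites lower in both. Of the 183 sites lower in DNBrg1 and higher in DNCHD4, 33.9% were listed in DNSnf2h cells with tetracycline, and of the 151 reverse sites 90.7% were, beside 65.3% of all. The shares were 93.2% of sites lower in both lines and 53.2% of those higher in both. Parental density differed in the same direction, with medians of 34.1 and 45.7 with tetracycline, beside 53.9 over all sites that the library listed. Within parental densities of 30 to 60, the listed shares were 30 of 69 sites (43.5%) and 51 of 53 (96.2%), beside 59.2% of all. Within densities under 30 they were 7 of 63 (11.1%) and 28 of 38 (73.7%), beside 31.8%. For densities of 60 to 120 they were 19 of 31 (61.3%) and 40 of 40, beside 86.4%, and from 120 upward all 3 and all 15 sites were listed. The shares of the opposite classes thus lay apart in the 3 lower bands and not in the highest. From the lowest of these 3 bands up, sites higher in both were listed at 29.8%, 63.3% and 90.6%, near the shares of all sites. Sites lower in both were listed at 68.4%, 91.2% and 99.7%.

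The levels of both lines were also set against parental cells. At sites lower in DNBrg1 and higher in DNCHD4, the median log2 ratio to parental cells, centred over all sites, was 0.42 in DNBrg1 with tetracycline and -0.52 without. In DNCHD4 it was -0.18 with and 0.63 without tetracycline. At the reverse sites the ratios were -0.21 and 0.63 in DNBrg1 and 0.37 and -0.48 in DNCHD4. These levels come from the libraries that chose the sites, and they are given as a description that supports nothing further. Tags in the library with the fewest had a median of 58 and 55 at the opposite sites, 69 at sites lower in both and 52.5 at sites higher in both, beside 76 over all sites; the part of this in the result was not tested.

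Sites of the opposite directions were spread differently over the genome. Of the 183 sites lower in DNBrg1 and higher in DNCHD4, 8 had another within 50 kb, and no window of 1 Mb held more than 2. Of the 151 reverse sites 23 had one, and chromosome 13 held 19 of them (12.6%) beside 4.42% of all sites. Among 868 windows of 1 Mb with 10 or more sites, 738 held no site lower in DNBrg1 and higher in DNCHD4. Of the same windows, 775 held none of the reverse sites and 82 held 1. The windows with most were on chromosome 13 from 23000001 (6 of 47 sites), chromosome 11 from 87000001 (5 of 25), chromosome 11 from 101000001 (4 of 31), chromosome 13 from 21000001 (4 of 33) and chromosome 4 from 88000001 (3 of 38). Sites lower in both lines had another such site within 50 kb in 26.4% of cases, and those higher in both in 4.10%. Of all 21818 sites, 81.4% had another of the 21818 within 50 kb. These shares depend on class size, which ran from 151 to 1637 sites and was not taken into account.

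A stretch of chromosome 13 from 21000001 to 24000000, singled out after its values were seen, is described further. It held 97 sites, of which 11 were higher in DNBrg1 and lower in DNCHD4, beside 0.692% of all sites. None was the reverse, beside 0.839% of all sites. The difference of changes was above 0 at 91 of the 97 sites, with a median of 0.95, beside 0.08 over the other 868 sites of the chromosome. DNBrg1 stood at least 2-fold above DNCHD4 at 46 of the 97, beside 5.74% of all sites. Of the 868 windows, the one from 23000001 had the highest median difference, 1.17 over 47 sites, and its neighbours reached 0.69 (33 sites) and 0.86 (17 sites). DNBrg1 changes had a median of 0.65 (56 sites at least 1.5-fold higher, none lower), DNCHD4 changes one of -0.30 (2 higher, 19 lower), DNSnf2h one of -0.33 (4 higher, 24 lower of 70), and parental cells 0.04 (2 higher, 2 lower of 92). The centred medians thus lay away from 0 in the 3 dominant-negative lines and near 0 in parental cells. Over all sites, DNBrg1 was at least 1.5-fold higher at 12.9% and lower at 16.8%, and DNCHD4 at 12.1% and 16.4%. DNSnf2h was higher at 12.5% and lower at 17.7% of its sites, and parental cells at 7.78% and 7.19%. Median densities as deposited, with and without tetracycline, were 58.0 and 61.5 in DNBrg1 and 48.1 and 48.0 in DNCHD4. They were 61.1 and 46.6 in parental cells and 23.0 and 20.5 in DNSnf2h. Mouse chromosome 13 carries the largest cluster of histone genes. The sites were not matched to genes, since no annotation of build mm9 was used here.

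The sites given next had the largest differences of changes among the 11 opposite sites of the stretch, 1.88 and 1.83. Over all its 97 sites the difference ran from -1.09 to 1.88, with a median of 0.95. From 23662706 to 23663713, the DNBrg1 libraries read 203 and 257, the DNCHD4 ones 225 and 126, the parental ones 190 and 183, and DNSnf2h 177 and 112. From 21845075 to 21846232 DNBrg1 read 183 and 252, DNCHD4 216 and 137, the parental line 176 and 172, and DNSnf2h 153 and 89.5. With tetracycline the DNBrg1 and parental values lay close together at both sites, and without it DNBrg1 was the highest library. The 11 opposite sites had differences of 1.53 to 1.88, parental changes of -0.24 to 0.42, and DNSnf2h changes below 0 at all 10 with a value. As deposited, the difference was above 0 at 59 of the 97 sites with a median of 0.25. Sites with 20 or more sites within 50 kb made up 11 of the 97, and with dense sites and chromosomes 14, 15, 18 and 19 left out of the whole set and the medians set again, the median of the other 86 was 0.84.

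**Figure D5:**
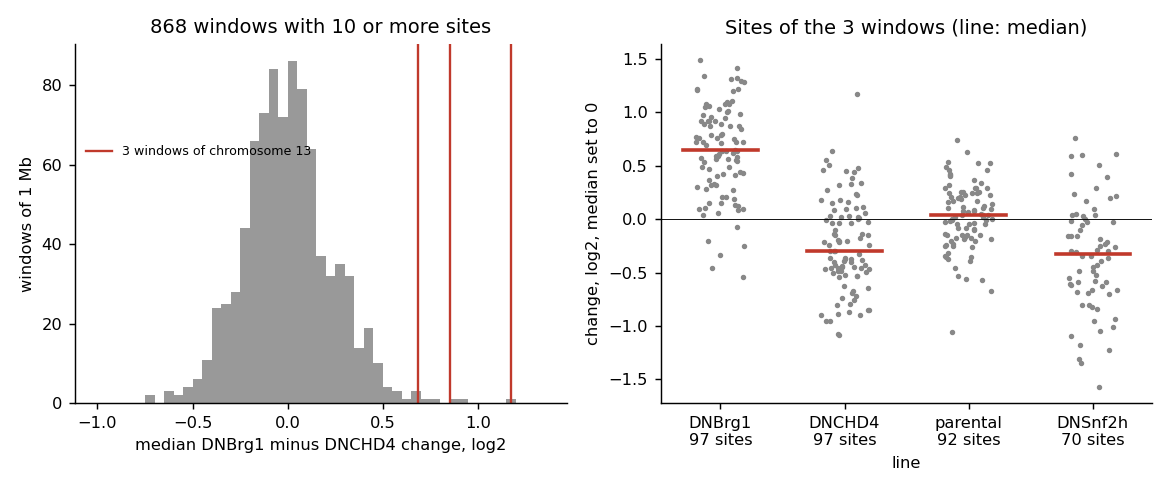
Left, the median difference of changes (DNBrg1 minus DNCHD4, log2) in 868 windows of 1 Mb with 10 or more sites, with red lines at the 3 adjoining windows of chromosome 13 (0.69, 0.86 and 1.17). Right, the change of each site of these windows in the 4 lines (points) with the median (red line): 0.65 in DNBrg1, -0.30 in DNCHD4, 0.04 in parental cells and -0.33 in DNSnf2h.

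The strength of a site was linked to the difference of changes in the strongest of 10 bins of equal size. There the median difference was 0.27 and the median DNBrg1 change 0.29, beside 0.01 in DNCHD4. In this bin 10 sites (0.458%) were higher in DNBrg1 and lower in DNCHD4, under the 0.692% of all sites. None was the reverse, beside 0.839% of all sites. In the other 9 bins the median difference was -0.08 to 0.06. With the median set to 0 within each of the 10 bins, the opposite sites numbered 151 and 175, and 91 of the 97 sites on chromosome 13 again had a difference above 0.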

How the data were processed

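DNase-seq was done on 8 libraries, 1 per group, and groups were taken from the labels. The submitters' processing notes name CASAVA 1.6 and build mm9, but no hotspot caller. Each deposited list gives, per the file headers, a highest and a mean tag density for every hotspot, which is a signal (coverage density). The peak values show that the authors scaled them by 1 factor per library, whose target no source names. The deposited enrichment score and p-value per hotspot were not used.

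All peak densities of a library were whole multiples of 1 step within 0.05 tags, which gave tags. Total depth is unknown. A site's value was its highest peak density in a list. Sites were not tested for difference; counts use 1.5-fold per line and 2-fold between lines. Exact binomial intervals on tags were used for ratios and a normal approximation on the log scale for differences. Sites in fewer than 4 lists were left out, because each list starts at its own lowest density. Named sites had 1 hotspot per list, fewer than 20 sites within 50 kb and both intervals clear of the line's median; the 5 of each opposite and 3 of each alike direction with the largest smaller change, and the 3 of each sign with the largest difference, were named. Sites, classes and lists were chosen with earlier results of these data known. The calling was tested on simulated data with counting error alone and with seeded changes well past the 1.5-fold limit. Changes near that limit were not simulated. No sequence or gene is given, as the reference tables are on another build. Tools were Python 3.11.15 with pandas 2.3.3 and numpy 2.4.6, scipy 1.17.1 for intervals, and matplotlib 3.10.9 for plots.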

Additional observations from a re-analysis of the deposited data

Results flagged for a closer look

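Results in which the lines moved in opposite ways are listed here with their values; with 1 library per group none of these differences was tested. They comprise 183 sites lower in DNBrg1 and higher in DNCHD4, and 151 sites higher in DNBrg1 and lower in DNCHD4. Among the named sites, the difference of changes (DNBrg1 minus DNCHD4, log2) was -3.61 on chromosome 7 from 152242170, -3.48 on chromosome 3 from 104597098, -3.26 on chromosome 5 from 30920026, -2.78 on chromosome 12 from 3781424 and -2.50 on chromosome 8 from 3606326. It was 2.74 on chromosome 17 from 17982055, 2.58 on chromosome 11 from 87275827, 2.55 on chromosome 8 from 11371919, 2.47 on chromosome 4 from 88707276, 2.37 on chromosome 4 from 116874555, 2.25 on chromosome 13 from 52753691 and 2.17 on chromosome 10 from 95540169.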

How the results depend on the processing

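No paired analysis was possible because each group has 1 library. Scaling and the limit moved the counts most; in each list below the order is lower in DNBrg1 and higher in DNCHD4, the reverse, lower in both, higher in both. The counts were 15, 8, 438 and 67 at 2-fold, 634, 565, 2726 and 1534 at 1.3-fold, and 1309, 5, 2629 and 98 with ratios as deposited. With at least 2 times the lowest density of each list (13212 sites) they were 54, 67, 806 and 219. With at least 50 tags in each library (15840 sites), opposite sites numbered 118 and 94 and sites higher in both 323. Residuals on the parental change left 900 sites lower in both. DNBrg1 stood 2-fold below and above DNCHD4 at 6943 and 139 sites as deposited, 971 and 735 with 50 tags, and 635 and 541 at 2 times the lowest density. The slope of the difference on the parental change was 0.0353 within density bins, 0.12 with 50 tags and 0.16 at 2 times the lowest density. Fewer sites were tested with 50 tags and at 2 times the lowest density, but the counts given for these settings fell more steeply than the sites did. At 2 times the lowest density, sites went from 21818 to 13212. Those lower in DNBrg1 and higher in DNCHD4 went from 183 to 54. The cause of these and of the other shifts was not tested. The median parental change turned to -0.34 at sites lower in DNBrg1 and higher in DNCHD4 as deposited, and at the reverse sites to -0.10 as deposited and -0.17 at 2-fold. As deposited, the difference turned to -0.43 at the named site on chromosome 14 from 106562591 and to -0.36 on chromosome 13 from 67673345. The other 97 values of the counts, SD and slopes stayed within 1.5 times. Alike sites outnumbered opposite ones under every setting, from 2.08 times as deposited to 22.0 times at 2-fold. The last 2 settings, without chromosome 13 and with sites listed in both parental libraries, were added after seeing the data. Depth limits the sites near a list's lowest density, which rest on 26 to 45 tags in the 4 libraries.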

Other observations

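Sites outside the 21818 lacked a hotspot in some of the 4 lists, and no change could be measured in a line with a missing value. A further 4474 sites were missing only from the DNBrg1 list without tetracycline. In DNCHD4 their median change was -0.43, with 1903 of the 4474 at least 1.5-fold lower and 429 higher. Among the 21818 sites, 16.4% were lower and 12.1% higher in DNCHD4. The 3480 sites missing only from the DNBrg1 list with tetracycline had a median DNCHD4 change of 0.23. Of these, 973 were higher and 342 lower, beside the same 12.1% and 16.4%. Missing only from a DNCHD4 list were 397 sites with and 169 without tetracycline, with median DNBrg1 changes of 0.09 and -0.08. The DNCHD4 library without tetracycline alone listed 33874 sites, 39.2% of those merged.

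The lowest median differences were those of a window on chromosome 19 from 24000001 (-0.75 over 13 sites) and one on chromosome 6 from 28000001 (-0.74 over 13 sites), with parental medians of 0.00 and 0.10. Chromosome 10 from 16000001 had a median difference of 0.92 over 10 sites, with a DNCHD4 median of -0.65 and a DNSnf2h median of -0.79. The X chromosome held 420 sites and a median difference of 0.11. None of them was lower in DNBrg1 and higher in DNCHD4, beside 0.839% of all sites. The reverse was seen at 2 (0.476%), beside 0.692% of all sites. With shares this small, the absence is not read as a trait of the chromosome.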
